A study of Mus musculus with 11 samples.

Results

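The genes Il2, Ifng, Il4, Il13, Rad50 and Il5 were examined through 3 windows of the mouse genome, given in build mm9. The Il2 window was chr3:36980000-37060000, the Ifng window was chr10:117800000-117960000, and the remaining window, chr11:53400000-53560000, held Il4, Il13, Rad50 and Il5 and is called the Th2 window after the T helper 2 cytokines. All binding positions and all Foxp3 peaks inside these limits were taken, whatever their strength. The windows held 220 of the 1059098 binding positions in 5 lists, 89 of the 436744 with a false discovery rate (FDR) of at most 0.01, and 0 of 2886 Foxp3 peaks.

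The positions came from chromatin immunoprecipitation with sequencing (ChIP-seq) of T cells taken straight from lymph nodes and spleen of mice about 8 weeks old. CD4+ T cells were sorted on GFP that reports Foxp3 into Foxp3-positive regulatory T (Treg) cells and Foxp3-negative CD4 T cells, called CD4 here. Foxp3, Elf1, Ets1 and Cbfb were precipitated from Treg cells, and Elf1 and Ets1 from CD4 cells. Foxp3 was in 3 libraries of 2 biological replicates, which the authors combined into 1 list, and each other factor was in 1 library per cell type. The sources used here give no mouse strain, no number of animals and no word on pooling. Input libraries were not analysed here, nor was Cbfb from CD4 cells, a sample of low quality by its label. The lists hold binding and no expression, so the sorted cell types could not be checked against their markers. With 1 library per group there was no replicate check, and no test between cell types could be made.

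Il2 encodes the growth factor IL-2, which activated Foxp3-negative T cells make and on which Treg cells depend. Ifng encodes interferon gamma, the signature cytokine of T helper 1 cells. Il4, Il13 and Il5 encode cytokines of T helper 2 cells and lie in a cluster with Rad50, a DNA repair gene whose body is known to hold the locus control region of the cluster. Foxp3 is known to hold back cytokine production in Treg cells, and its complex with Runx1 has been described as a repressor of Il2. Elf1 and Ets1 belong to the ETS family, whose members bind DNA around a GGAA core. Cbfb does not bind DNA itself and stabilises Runx proteins on DNA, and Runx binding has been described at a silencer of Il4.

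The promoters of 3 members are shown, 1 cytokine from each window, because they show how the core words of the ETS and Runx families lie just before these genes. Each is the 250 bases before the annotated start, taken from RefSeq (build GRCm38.p6) and written 5′ to 3′ on the strand of the gene. Capitals mark GGAA or its reverse complement TTCC, and TGTGGT or its reverse complement ACCACA, a Runx word. Il2 and Il13 are on the minus strand of chromosomes 3 and 11, and Ifng is on the plus strand of chromosome 10.
Il2: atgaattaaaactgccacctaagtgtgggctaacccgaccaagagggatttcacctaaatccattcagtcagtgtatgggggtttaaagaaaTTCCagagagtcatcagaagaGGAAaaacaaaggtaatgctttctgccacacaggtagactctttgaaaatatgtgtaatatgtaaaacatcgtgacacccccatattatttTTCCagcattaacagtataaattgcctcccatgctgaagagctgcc
Ifng: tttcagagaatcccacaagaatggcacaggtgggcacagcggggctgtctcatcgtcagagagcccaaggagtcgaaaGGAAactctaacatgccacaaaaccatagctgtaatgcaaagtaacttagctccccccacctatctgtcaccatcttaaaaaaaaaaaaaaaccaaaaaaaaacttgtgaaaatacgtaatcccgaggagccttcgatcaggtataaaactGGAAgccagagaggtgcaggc
Il13: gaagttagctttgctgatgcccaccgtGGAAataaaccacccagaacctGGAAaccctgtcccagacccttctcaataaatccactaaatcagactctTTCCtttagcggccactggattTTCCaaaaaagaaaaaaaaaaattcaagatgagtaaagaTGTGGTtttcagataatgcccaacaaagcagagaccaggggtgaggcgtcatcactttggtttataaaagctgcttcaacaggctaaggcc

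The Il2 promoter held GGAA words 158, 137 and 46 bases before the start. The Ifng promoter held them 172 and 21 bases before it. The Il13 promoter held 4, at 223, 201, 152 and 130 bases, and the only TGTGGT word of the sequences searched, 91 bases before its start. Il5 had GGAA at 113 and 46 bases, and the promoters of the 2 Il4 starts had 4 and 6 such words. The table matched 5 of the 6 genes, with 6 sequences, and the gene left out was Rad50. None of the 6 sequences held CGGAAG or AGGAAG, longer words that contain GGAA, or TGTTTAC, a forkhead word. All words were sought on both strands. Over all 32851 promoters of this length, 93.4% held GGAA, 13.6% CGGAAG, 29.5% AGGAAG, 14% TGTGGT and 3.17% TGTTTAC. The GGAA core is also found in NFAT sites, and a match describes only these letters. The gene table is on another build than the binding positions. No position could therefore be placed on a promoter, an exon or an intron, or assigned to a gene in any window. In the RefSeq gene order Adad1 lies next to Il2 and Kif3a next to Il4. Whether these genes reach into the windows was not determined.

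Foxp3, the factor that defines Treg cells, had no peak in any of the 3 windows. The nearest peak to the Il2 window lay 226.729 kb before it, at chr3:36753071-36753271, and the next lay 597.16 kb after it. The nearest peaks to the Ifng window lay 259.516 kb before and 359.696 kb after it. For the Th2 window the nearest peak before it was 285.692 kb away, but a pair of peaks lay just past the other limit, 16.94 kb and 17.372 kb away, at chr11:53576940-53577140 and chr11:53577372-53577572. In the RefSeq gene order Irf1, a transcription factor gene, follows Il5 on that side. Which gene the pair lies in was not determined.

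The absence of a Foxp3 peak was the usual case for windows of these sizes. When windows of the same size were laid end to end along the same chromosome, and those with no deposited position in any list were left out, 5.71% of 1945 windows on chromosome 3 held a Foxp3 peak. The share was 13.7% of 791 windows on chromosome 10 and 18.1% of 741 windows on chromosome 11. Among the nearest 10 windows on each side, 10% held a peak around Il2, 30% around Ifng and 45% around the Th2 window. A window without a Foxp3 peak therefore was no exception at any of the 3 places.

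The Foxp3 peaks nearest to the windows carried other factors to differing extents. Over all 2886 Foxp3 peaks, 98.9% had a position of at least 1 other list within 200 bp and 20.7% had all 5. By list it was 85.2% with Treg Elf1, 83.5% with Treg Ets1, 28.1% with Treg Cbfb, 88.9% with CD4 Elf1 and 89% with CD4 Ets1. All 5 lists met at the peak before Il2, the peak after Ifng and the peak before the Th2 window. In fold enrichment, the authors' estimate per position, the peak after Il2 had only Treg Ets1 at 3.33-fold and CD4 Elf1 at 0.920-fold. The peak before Ifng had no Treg Elf1 and no Cbfb position, but Treg Ets1 at 4.22-fold, CD4 Elf1 at 6.17-fold and CD4 Ets1 at 4.97-fold.

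At the peak before Il2 the 5 lists differed in strength. Their fold enrichment in Treg cells was 24.0 for Elf1, 5.10 for Ets1 and 4.11 for Cbfb, and in CD4 cells 23.0 for Elf1 and 11.6 for Ets1. Of the pair after the Th2 window, the first peak had Elf1 and Ets1 positions from both cell types and no Cbfb position. The second had no Treg Elf1 position, but had Treg Ets1 at 12.4-fold, Treg Cbfb at 5.75-fold, CD4 Elf1 at 4.60-fold and CD4 Ets1 at 16.8-fold. The last ranked 1006 among the 242086 positions of its list by score, the authors' measure of a position's strength. The Treg Elf1 position of the first peak, at 53577137, lay not far past 200 bp from the second. The Cbfb position of the second, at 53577405, lay not far past 200 bp from the first. The difference within the pair thus depends on that limit.

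Elf1, Ets1 and Cbfb all had positions in each window. At an FDR of at most 0.01 the Il2 window of 80 kb held 4 Treg Elf1, 1 Treg Ets1, 7 Treg Cbfb, 4 CD4 Elf1 and 4 CD4 Ets1 positions. The Ifng window of 160 kb held 15, 10, 10, 5 and 4 in the same order. The Th2 window, also of 160 kb, held 8, 3, 7, 6 and 1. In all, 20 of 41 deposited positions passed in the Il2 window (95% Poisson interval of the count 12.2 to 30.9), 44 of 104 in the Ifng window (32 to 59.1) and 25 of 75 in the Th2 window (16.2 to 36.9). These intervals cover counting error only, and the read depth of the libraries is unknown.

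Pooled over the windows, the share of positions that passed was close to that of each whole list. Of the Treg Elf1 positions in the windows 77.1% passed, against 84% of the whole list. The Treg Ets1 share was 28.6% against 27.3%, and that of Treg Cbfb 75% against 75.2%. In CD4 cells Elf1 had 25.9% against 22.2% and Ets1 19.6% against 17.4%. The lists that passed were far from equal in length, from 42040 positions for CD4 Ets1 to 157731 for Treg Elf1. A stricter mark is a lower bound of fold enrichment above 1, which 16 of 27 Treg Elf1 positions reached (59.3%, against 53% over the list). Treg Ets1 had 50% against 42.3% and Treg Cbfb 45.8% against 37%. In CD4 cells the shares were 60% against 55.3% for Elf1 and 66.7% against 61.2% for Ets1. The pooled shares that passed thus lay near the background, and those with a lower bound above 1 lay somewhat above it in every list. Single windows departed from the background on small counts. Over the 5 lists, the lower bound was above 1 for 31 of the 44 positions that passed at Ifng. The same held for 7 of 20 at Il2 and 11 of 25 at Th2. A lower bound above 1 was reached by 0 of 7 Cbfb positions at Il2 and 7 of 10 at Ifng. For Treg Elf1 it was reached by 4 of 4 positions at Il2 and 2 of 8 at Th2. Of the CD4 Ets1 positions 44.4% passed at Il2 and 5.56% at Th2.

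**Figure D1:**
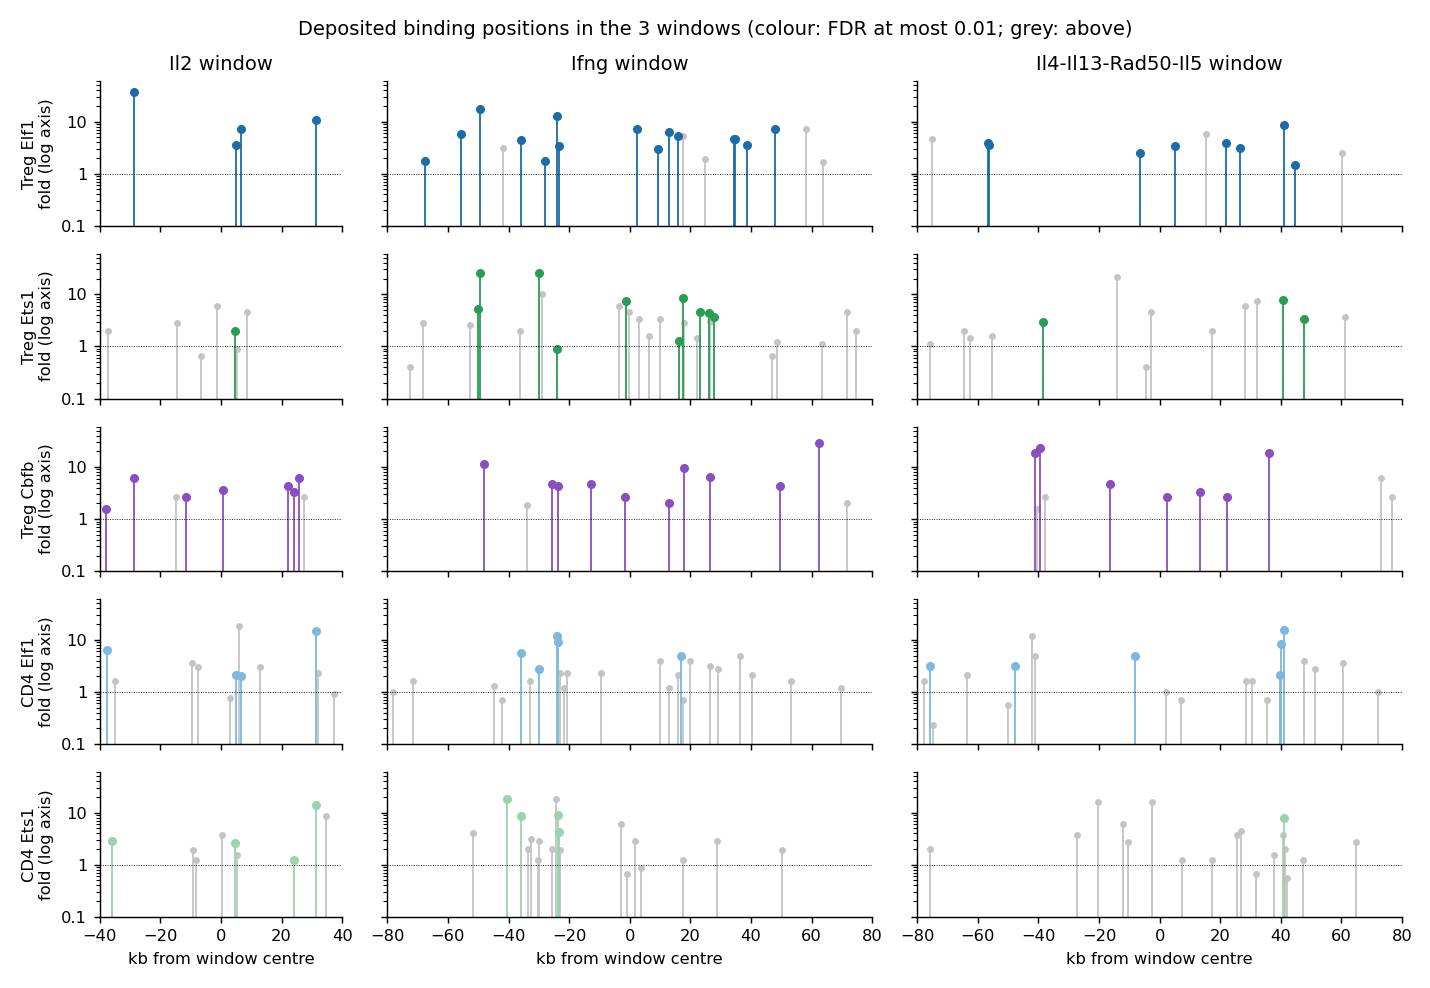
Fold enrichment (log axis) of every deposited position against its distance in kb from the centre of its window, by library. Coloured points have an FDR of at most 0.01 and grey points do not. The Ifng window has 15 coloured Treg Elf1 points against 5 for CD4 Elf1, and the Th2 window has a single coloured CD4 Ets1 point.

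Over the whole chromosome, Treg Ets1 at Ifng and CD4 Ets1 at Il2 lay highest among the moved windows. The 10 Treg Ets1 positions at Ifng compared with a median of 3 per moved window, and 9.1% of moved windows held at least as many. The 4 CD4 Ets1 positions at Il2 compared with a median of 0, and 9.87% held at least as many. At Il2 the share was 13.4% with CD4 Elf1, 16.3% with Treg Cbfb, 68.7% with Treg Elf1 and 74.9% with Treg Ets1. At Ifng it was 25.3% with Treg Elf1, 36.9% with Treg Cbfb, 30.6% with CD4 Elf1 and 25.8% with CD4 Ets1. In the Th2 window no list stood high. There the share ran from 31.2% for CD4 Elf1 to 71% for CD4 Ets1, whose 1 position compared with a median of 2.

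Over all 5 lists, 20.3% of moved windows held at least as many positions as the Il2 window, 17.8% as many as the Ifng window and 48.4% as many as the Th2 window. Measured only against the nearest 10 windows on each side, these shares were 50%, 40% and 55%. By list, Treg Ets1 at Ifng then stood at 25%, level with Cbfb, and CD4 Ets1 at Il2 at 20%, also level with Cbfb. CD4 Elf1 was at 30% at Il2, and CD4 Elf1 and CD4 Ets1 were both at 60% at Ifng. The counts at Il2 and Ifng were thus ordinary for their own neighbourhood. The shares describe where each window lies among others and are no test.

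**Figure D2:**
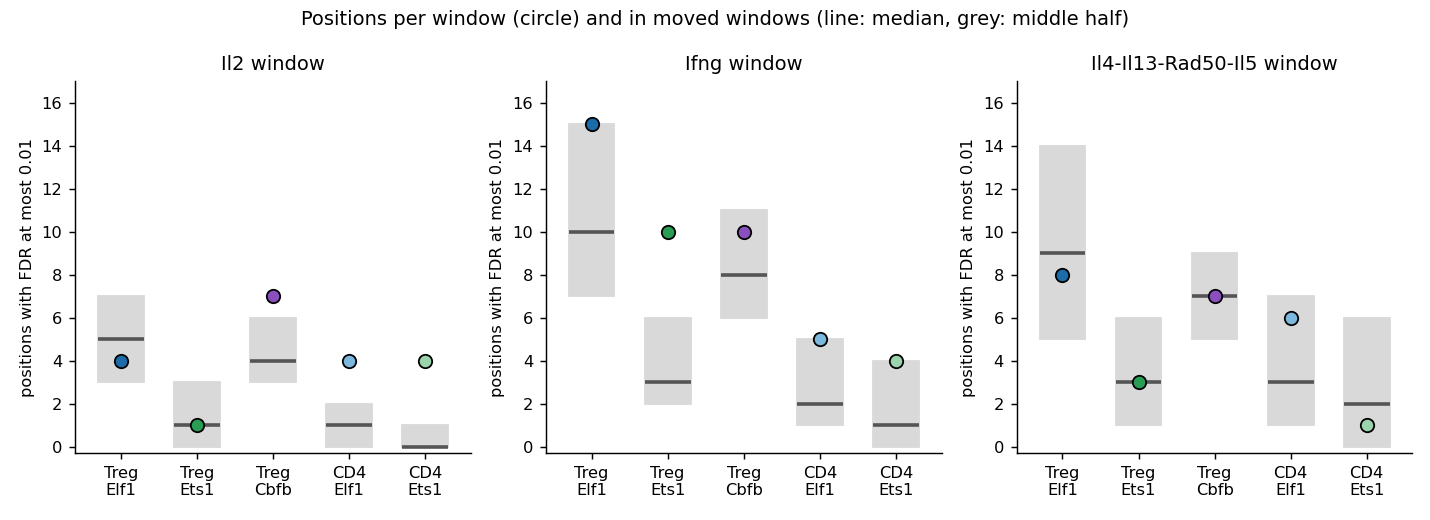
Number of positions with an FDR of at most 0.01 in each window (circles), by library, with the median (line) and the interquartile range (grey) over windows of the same size along the same chromosome. The circles of Treg Ets1 in the Ifng window and of Treg Cbfb, CD4 Elf1 and CD4 Ets1 in the Il2 window lie above the grey range.

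At the Il2 window the best score ranks of Elf1 and Ets1 were in CD4 cells, at a place where Treg Elf1 had a position too. At chr3:37051407-37051476 CD4 Elf1 had a position at 14.9-fold (lower bound 5.10), CD4 Ets1 at 14.2-fold (lower bound 3.93) and Treg Elf1 at 10.6-fold (lower bound 2.37). Both CD4 positions had the highest score of their list in the window. They ranked 5647 of 241359 and 6344 of 242086, and the Treg Elf1 position ranked 23446 of 187745. No Treg Ets1 position of any FDR lay closer than 22785 bp, and the nearest Cbfb position, which did not pass, lay 3917 bp away. Across the numbered chromosomes and X, 4.66% of the 3435 sites with this combination of lists held a Foxp3 peak. The share was 5.62% over all 7275 sites of 3 lists and 0.721% over all 370204 sites. Most sites of this kind lacked Foxp3, as most sites of any kind did, but they held it more often than sites at large. A site here is a run of positions and Foxp3 peaks joined within 200 bp. A Foxp3 peak can thus bridge positions that would otherwise form separate sites. This can raise the share of sites of several lists that hold a Foxp3 peak, here and below.

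The only Treg Ets1 position that passed in the Il2 window sat at a site of 3 lists, chr3:37024727-37024786. Its fold was 2.00, beside 2.56 for CD4 Ets1 and 2.13 for CD4 Elf1, and all 3 lower bounds were under 1. By score, CD4 Ets1 was the strongest of the 3 within its own list, at rank 7929. The nearest Treg Elf1 position lay 328 bp from the Treg Ets1 position, at 3.53-fold. The site therefore combined a fair rank for CD4 Ets1 with a low fold in all 3 lists.

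The Treg Elf1 position of highest score in the Il2 window, at 36991178 on chromosome 3, had a fold of 36.7 (lower bound 5.70, rank 15674). Cbfb had a position 150 bp away at 6.10-fold (lower bound 0.996). The nearest CD4 Elf1 position of any FDR was 6025 bp away and the nearest CD4 Ets1 position 7238 bp away. This fold, to 6 digits, was shared by 788 of the Treg Elf1 positions that passed, or 0.5%. The remaining shared sites of the window joined Treg Elf1 at 7.34-fold with CD4 Elf1 at 2.02-fold, and Cbfb at 3.36-fold with CD4 Ets1 at 1.21-fold. All 7 Cbfb positions of the window had a lower bound under 1. Their folds ran from 1.57 to 6.10, and the best ranked 36573 of 161760, at 37044183.

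At the Ifng window 1 site carried all 5 lists. It spanned 509 bp, chr10:117856117-117856626, and held 8 positions. Treg Elf1 stood at 12.7-fold (lower bound 5.60) and at rank 1252, its best in any of the 3 windows. CD4 Elf1 stood at 11.6-fold (lower bound 5.58, rank 2957), with another position at 9.05-fold. CD4 Ets1 stood at 9.04-fold (lower bound 3.85, rank 2609), with another at 4.30-fold. Elf1 in both cell types and CD4 Ets1 thus shared their highest score of the window at this site.

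Cbfb at the same site stood at 4.36-fold (lower bound 1.36, rank 1801), and Treg Ets1 at only 0.908-fold (lower bound 0.132, rank 33547 of 226148). The Treg Ets1 position passed on its FDR although its fold was under 1. Over the numbered chromosomes and X, 42.6% of the 1424 sites with all 5 lists held a Foxp3 peak, and this site did not. On chromosome 10, 28.4% of moved windows held a site of 4 or more lists. Of those 225 windows, 94 also held a Foxp3 peak (41.8%).

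Treg Ets1 had its highest score of the Ifng window elsewhere, at 117906106, with a fold of 4.39 (lower bound 1.05, rank 4811). A Cbfb position lay 297 bp from it, at 6.35-fold (lower bound 1.96) and rank 1204. The highest Cbfb score was at 117831996, with a fold of 11.3 (lower bound 2.53) and rank 635, or 0.393% of its list. Together with the position at the site of 5 lists, 3 Cbfb positions of the Ifng window were among the 2000 highest of their list, against 0 in each of the other windows.

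Another 5 sites of the Ifng window had more than 1 list. ETS factors of both cell types met at chr10:117844001-117844050, where Treg Elf1 stood at 4.40-fold, CD4 Elf1 at 5.63-fold and CD4 Ets1 at 8.50-fold. They met again at chr10:117850063-117850121, where Treg Ets1 stood at 26.0-fold and CD4 Elf1 at 2.76-fold. At chr10:117830499-117830500 Treg Ets1 at 26.0-fold and Treg Elf1 at 17.1-fold lay 1 bp apart with no CD4 position in the site. Treg Ets1 ranked 12694 there and 45645 at the site before, while Treg Elf1 at 17.1-fold ranked only 71493. Among positions that passed, 549 of Treg Ets1 (0.889%) and 9894 of Treg Elf1 (6.27%) shared these folds to 6 digits. Cbfb met Treg Elf1 at chr10:117892952-117893054 (2.03-fold and 6.36-fold) and Treg Ets1 at chr10:117897672-117897804 (9.58-fold and 8.66-fold). These 5 sites, like the Il2 site of Treg Elf1 at 7.34-fold, are named here because they had more than 1 list, a choice made after their values were seen.

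The Th2 window had a single shared site at the FDR limit of 0.01, and 4 lists met there. At chr11:53520867-53520910, within 43 bp, Treg Ets1 stood at 7.70-fold (lower bound 2.69), Treg Elf1 at 8.74-fold (3.004), CD4 Ets1 at 7.80-fold (2.96) and CD4 Elf1 at 15.4-fold (6.07). Each was the highest score of its list in the window. Treg Ets1 ranked 2003 (0.886% of its list), CD4 Elf1 5341, Treg Elf1 6050 and CD4 Ets1 6551. The Elf1 and Ets1 positions thus coincided in both cell types, and the CD4 Ets1 position was the only one of that list to pass in 160 kb. Both counts of 1 lie close to the limit. A CD4 Ets1 position at 53404144 with a fold of 2.02 missed it at an FDR of 0.0100197, and it lay beside the CD4 Elf1 position that passed at 53404162, at 3.13-fold.

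No Cbfb position belonged to that site, and the closest, at 53515965, lay 4945 bp from its CD4 Elf1 position. Of the 5446 sites with Elf1 and Ets1 in both cell types and no Cbfb, over the numbered chromosomes and X, 22.9% held a Foxp3 peak. This one did not, and the pair of Foxp3 peaks beyond the window began 56030 bp from its last position. On chromosome 11, 37.8% of moved windows held a site of 4 or more lists, and 127 of those 280 windows also held a Foxp3 peak (45.4%). A second CD4 Elf1 position lay at 53520185, at 8.28-fold, and joined no site at 200 bp.

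The 7 Cbfb positions of the Th2 window were each without a position that passed in another list within 200 bp. A CD4 Elf1 position that did not pass (FDR 0.188) lay at 53438721, near the Cbfb position at 53438778. The best by score was at 53440658, with a fold of 23.5 (lower bound 3.13, rank 12009), and those at 53438778 and 53515965 both had 18.3. Such values are common: 9806 of the Cbfb positions that passed, or 8.06%, share the fold of 18.3 to 6 digits, and 3.5% share that of 23.5. Scores were tied as well, with 13.1% of the Cbfb positions that passed at a single score. A high Cbfb fold by itself therefore was no rare value in that list.

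**Figure D3:**
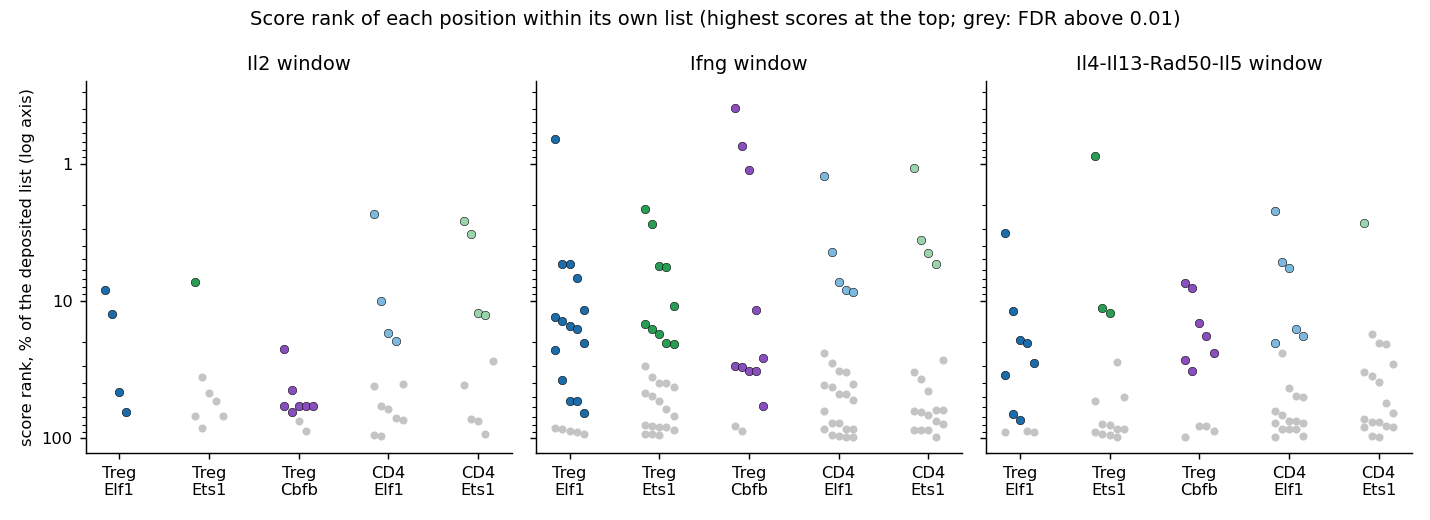
Rank by score of every deposited position in the windows, as a percentage of its own list (log axis, highest scores at the top), by library. Coloured points have an FDR of at most 0.01. The Ifng panel shows 3 Cbfb points near the top, at 0.393%, 0.744% and 1.11%, and the best Cbfb point is at 22.6% in the Il2 panel and at 7.42% in the Th2 panel.

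Joined within 200 bp, the 89 positions made 66 sites, of which 13 were in the Il2 window, 31 in the Ifng window and 22 in the Th2 window. Sites of 2 or more lists numbered 5, 6 and 1, or 12 in all. That is 18.2% of the sites, against 9.89% of 370204 sites over the numbered chromosomes and X. Within the windows the share was 38.5% at Il2, 19.4% at Ifng and 4.55% at Th2, on these small counts. The other 54 sites had a single list: 18 had Treg Elf1, 8 Treg Ets1, 19 Treg Cbfb, 7 CD4 Elf1 and 2 CD4 Ets1.

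**Figure D4:**
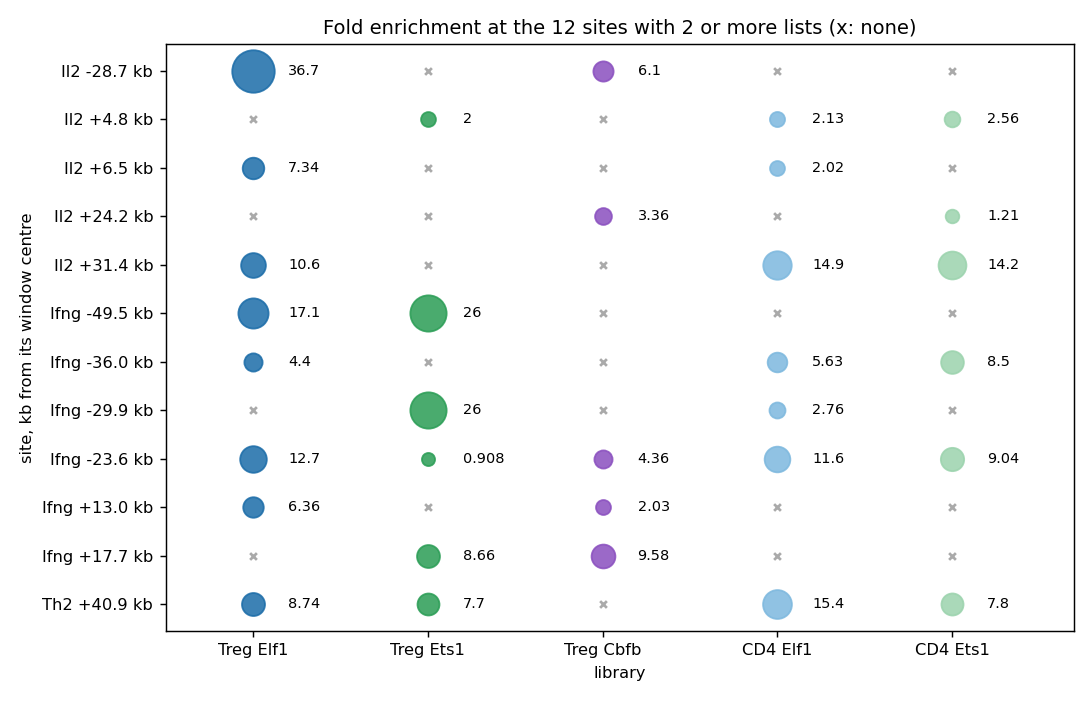
Fold enrichment at the 12 sites with 2 or more lists, by library, with each site placed by its distance in kb from the centre of its window. The area of a circle grows with the fold, which is printed beside it, and a cross stands for no position in the site. The Ifng site at -23.6 kb holds all 5 lists and the Th2 site at +40.9 kb holds 4.

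Elf1 and Ets1 in the cell types that do and do not express Foxp3 were compared by where their positions lay. ETS positions of both cell types met at 3 sites of the Il2 window, 3 of the Ifng window and 1 of the Th2 window. Sites with ETS positions from Treg cells only numbered 2, 19 and 9, and those from CD4 cells only 3, 2 and 5. Over the 3 windows, 14.9% of the 47 sites with Elf1 or Ets1 had both cell types, 63.8% Treg only and 21.3% CD4 only. Among 259318 such sites on the numbered chromosomes and X the shares were 9.37%, 69.7% and 21%, so the windows together lay near the background. The Treg lists that passed were the longer ones. With each list held to its 20000 highest scores, the Ifng window had 8 Treg and 7 CD4 positions of Elf1 and Ets1, the Il2 window 2 and 3, and the Th2 window 2 and 4. With the 10000 highest scores Ifng had 3 of each. The excess at Ifng of 15 Elf1 and 10 Ets1 positions in Treg over 5 and 4 in CD4 was nearly gone at these list lengths. It lay mainly past rank 20000, where most of the window's Elf1 and Ets1 positions that passed were from Treg cells. There CD4 Elf1 had positions at ranks 20331 and 20758 only, and CD4 Ets1 had none. Treg Elf1 had them at 21900, 24678, 26435, 28455, 30434 and 37981, and others further down. Treg Ets1 had them at 24988, 33547, 36289 and 39590, and others further down. Longer equal lengths were not counted, and the cause of the excess was not tested.

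For a given factor, 6 of the 27 Treg Elf1 positions had a CD4 Elf1 position that passed within 200 bp (22.2%, against 11.4% over the whole list). In the other direction 6 of 15 CD4 Elf1 positions had a Treg Elf1 position (40%, against 32.5%). For Ets1 it was 3 of 14 Treg positions (21.4%, against 18.7%) and 3 of 9 CD4 positions (33.3%, against 27.7%). Of the Treg Elf1 positions with an FDR of at most 0.01, 9 of 15 at Ifng and 7 of 8 at Th2 had no CD4 Elf1 position of any FDR within 1 kb. At Il2 this held for 1 of 4. Over the whole list the same held for 65% of the Treg Elf1 positions that passed, so the count at Ifng was close to the background and those at Th2 and Il2 rest on few positions. A missing partner says only that the other list has no entry there, and whether binding differed between the cell types was not tested.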

How the data were processed

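The submitters' processing notes name Bowtie 0.12.7 and build mm9. The deposited Foxp3 list combines the replicates and holds intervals 200 bp wide. The 5 other lists that the authors deposited hold single-base positions. Each position carries, per the file headers, the caller's score, its FDR, and the ratio of fold enrichment with a lower bound. The FDR did not fall steadily as the score rose. In Treg Elf1 a score of 6.75 had an FDR of 0.000245 and a score of 3.62 had 0.000138. The caller, its control and its thresholds are not given in the sources used here, and read depth is unknown. The members, lists and limits were chosen with earlier results of these data known.

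Positions with an FDR of at most 0.01 inside the windows were counted, and ranks were taken over each deposited list. Positions and Foxp3 peaks within 200 bp were joined into sites. Windows of the same size were laid end to end along the chromosome. Named by rule were the nearest Foxp3 peaks, the highest score of each list per window, and sites of 4 or more lists. Poisson 95% intervals are exact. The counting functions were tested on made-up positions. Promoters came from RefSeq (GRCm38.p6). Alternatives were another FDR, equal list lengths, other distances, wider windows and other sets of moved windows. Python 3.11.15, numpy 2.4.6, pandas 2.3.3, scipy 1.17.1 and matplotlib 3.10.9 were used.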

Additional observations from a re-analysis of the deposited data

How the results depend on the processing

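Counts of positions followed the limit set on the lists, while the 0 Foxp3 peaks per window did not change by peak midpoint. Counts below are in the order Treg Elf1, Treg Ets1, Treg Cbfb, CD4 Elf1 and CD4 Ets1, and only those that moved by more than 1.5 times are given. At an FDR of at most 0.001 the Il2 window kept 1 Cbfb, 2 CD4 Elf1 and 2 CD4 Ets1 positions, the Ifng window 4 Treg Ets1 and 5 Cbfb, and the Th2 window 1 Treg Ets1 and 3 CD4 Elf1. With all deposited positions the counts were 7 Treg Ets1, 12 CD4 Elf1 and 9 CD4 Ets1 at Il2. They were 28, 25 and 19 for the same lists at Ifng, and 14, 21 and 18 at Th2, where Cbfb had 11. With the 10000 highest scores of each list the counts were 0, 0, 0, 1 and 2 at Il2 and 1, 2, 3, 1 and 2 at Ifng. At Th2 they were 1, 1, 0 and 1 for the first 4 lists. With the 20000 highest scores Il2 had 1 Treg Elf1, 0 Cbfb, 1 CD4 Elf1 and 2 CD4 Ets1, Ifng had 4, 4, 4 and 3 for the first 4 lists, and Th2 had 1, 1, 2 and 3.

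Widening the Th2 window by 20 kb on each side took in the pair of Foxp3 peaks, or 1.6 when scaled to the window's size. The unscaled count of 2 was added after the data had been seen. Against only the nearest 10 windows on each side, the share with at least as many positions over all lists was 50% for Il2, 40% for Ifng and 55% for Th2, and the share with a Foxp3 peak 10%, 30% and 45%. Joining within 500 bp gave 2 shared sites in the Th2 window. Of the values that answer a comparison, 50 moved past their limits and 43 stayed within them. Of the others, 17 moved and 34 stayed, and not all of those that moved are given here. No paired analysis was possible because Foxp3 and input share replicate numbers but Foxp3 has 1 combined list. No replicate could be left out for the same reason. Unknown depth limits what a missing position can show.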

Other observations

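Cbfb at the Ifng window was concentrated among high scores in a way the total count did not show. Its 3 positions among the 2000 highest of the list compared with 4 of 791 moved windows of chromosome 10 (0.506%) that held as many, while at an FDR limit of 0.01 a share of 36.9% held at least as many positions as the window. Among the 10000 highest scores it was again 3 positions, and 4.42% of moved windows held as many. Among the 20000 highest scores Cbfb had 4 positions there, as did Treg Elf1, Treg Ets1 and CD4 Ets1. The limit of 2000 was chosen after the values had been seen. This list and window were likewise picked out from all lists and windows, and the shares are descriptions.

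Some positions that did not pass the FDR limit had high folds. In the Th2 window a Treg Ets1 position at 53465919 stood at 21.97-fold with an FDR of 0.122. In the Il2 window a CD4 Elf1 position at 37025878 stood at 18.2-fold with an FDR of 0.0431. In the Treg Ets1 list the fold of 2.00 at Il2 was shared to 6 digits by 7716 positions, or 12.5% of the list that passed, whereas the Treg Elf1 fold of 12.7 at Ifng was shared by 17 and the CD4 Elf1 fold of 15.4 at Th2 by 36.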
